A study of Mus musculus with 6 samples.

Results

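The genes described here code for the receptors that cells use to sense glutamate, GABA and glycine. They were taken from the count table by symbol: Gria, Grid, Grik and Grin followed by a digit (ionotropic glutamate receptors), Grm followed by a digit (metabotropic glutamate receptors), Gabr followed by a letter (GABA-A receptors), and Glra or Glrb (glycine receptors). The Gabarap genes, which code for no receptor, were left out by the rule. The rule found 52 of the 24421 genes in the table. Of these, 50 code for receptors or receptor subunits. The other 2 are Grid2ip, which codes for delphilin, a scaffold protein of synapses, and Grin1os, a transcript on the strand opposite Grin1.

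RNA-seq was performed on organ-cultured cochlear tissue of postnatal day 2 wild-type mice in 6 samples, 3 of them control and 3 neomycin, and 6 to 8 cochleae were pooled for each sample. Neomycin is an aminoglycoside antibiotic that kills hair cells (HCs). After 12 h in culture, explants received 1 mM neomycin for 6 h and were kept for 5 days with 10 μM EdU, a label of DNA synthesis. The culture description attached to the samples is the same for all 6, neomycin included, so the groups were taken from the sample titles. Nothing given with the samples says whether the pools came from separate litters or cultures, so the p-values measure the spread between these pools only. The study's dissection removed the modiolus, which holds the cell bodies of the spiral ganglion neurons, along with the stria anlage and the tectorial membrane. Total counts ranged from 50471116 to 66068108 per sample.

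In the cochlea, inner HCs release glutamate onto the endings of spiral ganglion neurons, which sense it mainly through AMPA receptors. NMDA, kainate and metabotropic receptors tune glutamate synapses in the brain and are also found in the inner ear. GABA-A and glycine receptors are chloride channels built from several subunits, and efferent fibres from the brainstem use GABA among other transmitters. A GABA-A receptor usually joins alpha, beta and gamma subunits, and glycine receptors join alpha subunits with Glrb.

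The cell type markers frame all of the values that follow. Of 14 HC markers, 12 passed the test as lower in the neomycin group (median over the 14 on the log2 scale, -1.996), and their summed level was 789 to 920 CPM (counts scaled to a common library size, with TMM scaling) in control and 249 to 310 CPM in neomycin samples. Of 12 neuronal markers, 4 were lower (Nefl, Nefm, Nefh and Snap25), and the sums were 303, 223 and 209 CPM in control replicates 1 to 3 against 214, 197 and 200 CPM in neomycin replicates 1 to 3. Control replicate 1 thus had the highest neuronal sum. The median log2 fold change of the 12 neuronal markers was -0.72, with 10 of 12 below 0 and none called higher. Schwann cell and glial markers summed to 556 to 623 CPM in control and 523 to 549 CPM in neomycin, with 1 of 8 lower. Sox10 alone made up most of this sum (355 ± 21.7 and 347 ± 1.95 CPM, adjusted p = 0.797). Supporting cell (SC) markers went from 6503 to 6933 CPM in control to 7412 to 7867 CPM in neomycin, with 2 of 10 lower and none called higher. Most of that sum was Epyc (5531 ± 249 and 6385 ± 203 CPM, adjusted p = 0.132), and the median log2 fold change of the list was 0.027, with 5 of 10 below 0. Macrophage markers summed to 75.8 to 102 CPM and 110 to 137 CPM, with 3 of 8 higher. Mesenchymal markers had sums of 3005 to 3407 CPM and 3242 to 3348 CPM, with 1 of 7 lower and 1 higher. Endothelial sums were 267 to 294 CPM and 255 to 307 CPM, although 4 of 5 of these genes were lower. Emcn, the gene not lower, made up most of the endothelial sum (252 ± 12.1 and 273 ± 26.2 CPM, adjusted p = 0.329). The median log2 fold change of the endothelial list was -2.05. Pericyte sums were 128 to 154 CPM and 100 to 107 CPM, with 2 of 5 lower. No marker of any of these lists was at 0 in every sample. The part of each cell type in the receptor values was not tested.

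**Figure D1:**
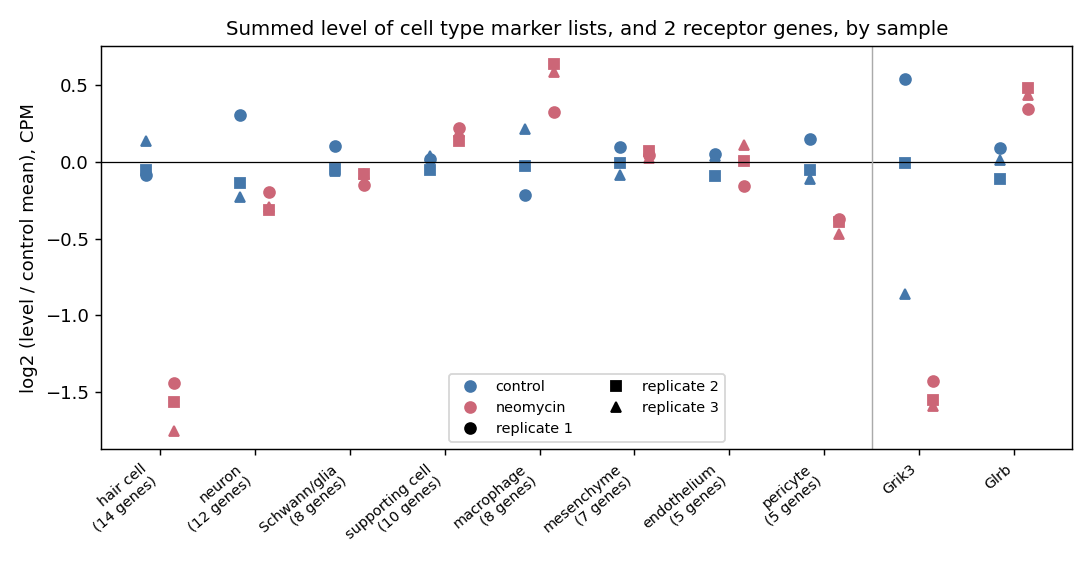
Summed CPM of each cell type marker list, and of Grik3 and Glrb, in each sample as log2 of its ratio to the control mean (y axis). Points are single samples, with colour for the group and shape for the replicate number. The HC sum was lower in all 3 neomycin samples (249 to 310 CPM against 789 to 920 CPM), while control replicate 1 was highest among the controls for the neuronal sum and for Grik3.

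Of the 52 receptor genes, 31 had enough counts to be tested and 21 did not. Genes were called when the adjusted p was under 0.05 and the fold change over 1.5. Over all 15988 genes tested, 8.84% were called, 6.6% lower and 2.24% higher after neomycin. Among the receptor genes, 6 of 31 (19.4%) were called, 3 lower and 3 higher. Grik3 and Grm7 were among the genes that fell, and Gria1 was among those that rose. By adjusted p alone, 9 of 31 receptor genes (29.0%) passed, against 29.0% of all genes tested. The control and neomycin samples did not overlap for 16 of 31 receptor genes (51.6%), against 43.5% of all genes. The median log2 fold change of the receptor genes was -0.23, with 17 of 31 (54.8%) below 0, and that of all genes was -0.004, with 50.5% below 0.

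**Figure D2:**
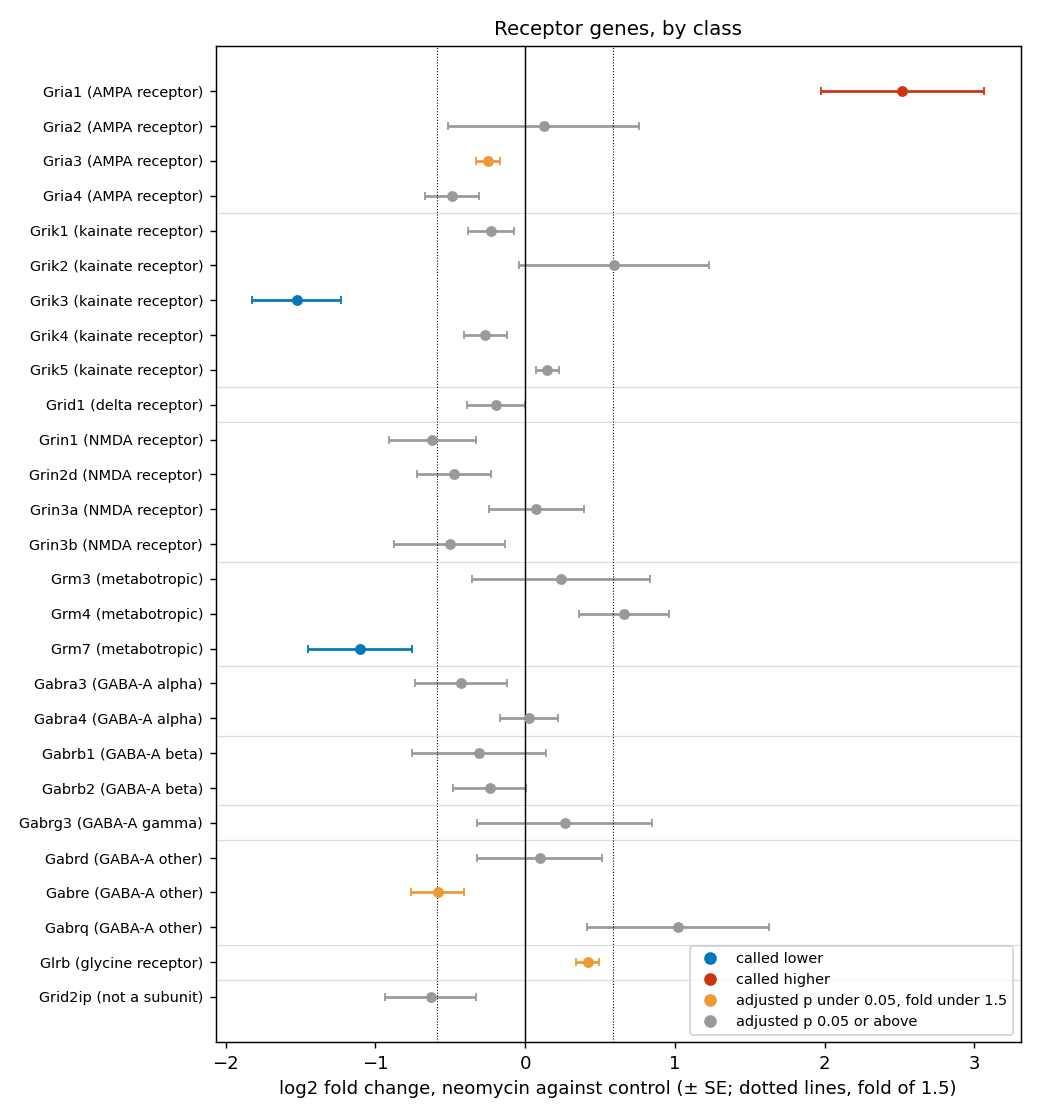
Log2 fold change of neomycin against control (x axis, with bars of 1 SE) for 27 of the 31 receptor genes tested, in order of receptor class (y axis). Colours give the call, and dotted lines mark a fold change of 1.5. Among the genes drawn, Grik3 at -1.52 is the lowest and Gria1 at 2.52 is the highest.

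Per kilobase of exon, the order of the levels was led by Grik5 and Glrb in both groups. Among the highest in control samples were Grik5 at 16.7 ± 1.36, Glrb at 10.1 ± 0.710, Gria3 at 2.64 ± 0.0862 and Grik4 at 1.30 ± 0.050 CPM per kb (SD, n = 3). In neomycin samples the order was Grik5 at 18.5 ± 0.738, Glrb at 13.6 ± 0.646, Gria3 at 2.22 ± 0.0165, Grik4 at 1.09 ± 0.170 and Gabra4 at 0.883 ± 0.200 CPM per kb, the last 2 overlapping. These ranks depend on the length used: per kilobase of coding sequence, Glrb preceded Grik5 in control (31.7 and 29.3 CPM per coding kb) and in neomycin samples (42.4 and 32.5), and Gabra4 preceded Grik4 in both.

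Among the AMPA receptor genes, which code for the fast glutamate channels, Gria3 was the main transcript and Gria1 was the gene that rose. Gria3 stood at 26.0, 26.8 and 25.1 CPM in control replicates 1 to 3, and at 22.0, 21.8 and 21.7 CPM in neomycin replicates 1 to 3. The groups did not overlap, yet the difference was small (log2 fold change -0.25, SE 0.08, adjusted p = 0.0354). After a correction for gene length it was -0.07, with an adjusted p of 0.547. With 1 library left out, the adjusted p stayed under 0.05 only without control replicate 3 (0.0376) and otherwise reached 0.123, without control replicate 2. Gria1 had 0.0725, 0.0958 and 0.0890 CPM in control samples, which is 5 counts in each library. In neomycin samples it had 0.320, 0.593 and 0.577 CPM, from 17, 35 and 31 counts. Every neomycin sample was thus above every control (log2 fold change 2.52, SE 0.54, adjusted p = 0.00539), at levels far below Gria3. Gria1 passed the count filter only through its neomycin samples, the group in which it was higher. In the edgeR fit with no filter, its log2 fold change was 2.51 (adjusted p = 0.0085). Gria4 measured 4.70 ± 0.729 CPM in control and 3.36 ± 0.305 CPM in neomycin (log2 fold change -0.49, adjusted p = 0.0569). Gria2, whose subunit limits calcium entry through the channel, was at 0.370 ± 0.258 and 0.415 ± 0.289 CPM (0.12, adjusted p = 0.905). Per kilobase, Gria3 made up 77.2% ± 2.84 of the AMPA receptor transcripts in control and 77.6% ± 1.68 in neomycin samples. The share of Gria1 was 0.417% ± 0.0701 and 2.87% ± 0.852. These shares depend on the length used. Per kilobase of coding sequence, they were 83.7% ± 2.52 and 83.9% ± 0.79 for Gria3, and 0.271% ± 0.0439 and 1.87% ± 0.573 for Gria1. The AMPA receptor genes summed to 29.6 to 32.3 CPM in control and 26.1 to 26.2 CPM in neomycin.

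Of the kainate receptor genes, Grik3 fell and Grik5 was by far the most abundant. Grik3, a subunit that can form channels on its own, measured 7.07, 4.85 and 2.69 CPM in control replicates 1 to 3 and 1.81, 1.66 and 1.62 CPM in neomycin replicates 1 to 3. In bulk samples, fewer cells of a type and less RNA per cell cannot be told apart. The controls were spread widely, but their lowest sample was above the highest neomycin sample (log2 fold change -1.52, SE 0.30, adjusted p = 0.00301). Control replicates 1 to 3 had the same order in their neuronal, Schwann cell and glial, mesenchymal and pericyte marker sums. Their HC and macrophage sums had the opposite order, and their SC and endothelial sums had neither. The part of any of these cells in the fall was not tested. Without control replicate 1, the sample with the highest value, Grik3 was still called. Grik5, an auxiliary kainate subunit that needs a partner to form a channel, was at 91.9, 78.3 and 88.2 CPM in control and 92.1, 95.0 and 99.6 CPM in neomycin (0.15, SE 0.08, adjusted p = 0.163). Its groups were just apart, and the difference did not pass the test. Grik5 took 86.5% ± 1.47 of the kainate receptor transcripts per kilobase in control samples and 90.6% ± 0.631 in neomycin samples. Per kilobase of coding sequence, its share was 82.4% ± 2.19 in control and 88.0% ± 0.726 in neomycin samples. Grik4, the other auxiliary subunit, had 7.78 ± 0.298 and 6.47 ± 1.01 CPM (-0.27, adjusted p = 0.184). Grik1 was at 4.89 ± 0.0561 and 4.17 ± 0.323 CPM (-0.23, adjusted p = 0.282), and Grik2 at 0.23 ± 0.166 and 0.338 ± 0.169 CPM (0.59, adjusted p = 0.513). The kainate sum was 96.3 to 112 CPM in control and 103 to 113 CPM in neomycin.

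The delta receptors bind cerebellins and act in synapse formation. Grid1 measured 7.22, 4.29 and 6.12 CPM in control and 5.42, 5.59 and 4.41 CPM in neomycin samples, so the groups overlapped (-0.20, SE 0.19, adjusted p = 0.472). For Grid2ip the levels were 1.59 ± 0.473 and 1.03 ± 0.0433 CPM (-0.63, adjusted p = 0.136).

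None of the 4 NMDA receptor genes tested was called. NMDA receptors need the Grin1 subunit, joined by Grin2 or Grin3 subunits. Grin1 stood at 1.83 ± 0.566 CPM in control and 1.20 ± 0.126 CPM in neomycin (-0.62, SE 0.29, adjusted p = 0.130). Grin2d, the highest NMDA subunit per kilobase of exon by the group means, was at 2.12, 2.89 and 1.97 CPM in control and 1.56, 1.86 and 1.58 CPM in neomycin (-0.48, SE 0.25, adjusted p = 0.164). Those groups did not overlap, though the test was not passed. Per kilobase of coding sequence, Grin1 led in control and Grin3a in neomycin samples. Per kilobase of exon, Grin3b was above Grin2d in control replicate 3 and neomycin replicate 1. Exons of Grin1, Grin2d and Grin3b overlap opposite-strand genes (Grin1os, Gm45441 and Tmem259) over 1307, 643 and 1059 bases. Reads there could not be split without strand, so these ranks are uncertain. Grin3b stood at -0.50 on the log2 scale (adjusted p = 0.330) and Grin3a at 0.08 (adjusted p = 0.881). Grin2a, Grin2b and Grin2c, which code for other glutamate-binding NMDA subunits, had too few counts for the test. Grin2c had 35, 1 and 8 counts in control replicates 1 to 3 and 0, 1 and 1 in neomycin, so 1 control library held most of them. Over the pooled libraries, the ratio was 20.6 (95% exact interval 5.36 to 175, for counting error only). Grin2a had 0 to 4 counts per library and Grin2b 0 to 5.

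Grm7, a metabotropic receptor that couples to inhibitory G proteins and sits at presynaptic release sites, fell. Its level was 1.12, 1.40 and 0.925 CPM in control replicates 1 to 3 and 0.603, 0.458 and 0.540 CPM in neomycin replicates 1 to 3. All neomycin samples were below all controls (log2 fold change -1.10, SE 0.35, adjusted p = 0.0318). The call was lost without control replicate 1 (adjusted p = 0.0784), control replicate 2 (0.137), neomycin replicate 2 (0.110) or neomycin replicate 3 (0.0811). In the annotation, exons of Grm7 overlap the antisense gene Gm20387 over 130 bases, and whether the counts used strand is not given in the sources used here. Grm4, of the same receptor group, was the highest metabotropic gene per kilobase, at 4.78, 2.66 and 2.05 CPM in control and 4.41, 6.91 and 3.74 CPM in neomycin. The groups overlapped because of control replicate 1 (0.66, SE 0.30, adjusted p = 0.118). Without that library, the log2 fold change was 1.10 and Grm4 was called (adjusted p = 0.0108). Grm3 was at 0.320 ± 0.187 and 0.385 ± 0.232 CPM (0.24, adjusted p = 0.792).

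The other metabotropic genes were not tested. Grm6, known from the bipolar cells of the retina, had 11, 1 and 12 counts in control and 0 in each neomycin library. With a floor of 3 counts set over the neomycin libraries, the pooled ratio of control to neomycin was 7.48. That ratio makes no allowance for counting error in the control libraries, so it is not a lower bound. Exons of Grm6 overlap those of the antisense gene Gm12660 over 599 bases, so its few reads may not all be its own. Grm8 had 1 to 14 counts per library, Grm2 had 0 to 7, and Grm5 had 1 count in all.

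Among the beta subunit genes of GABA-A receptors, Gabrb2 was at 3.65, 2.61 and 2.60 CPM in control and 2.60, 3.10 and 1.82 CPM in neomycin samples, so the groups overlapped (-0.24, SE 0.24, adjusted p = 0.497). Gabrb1 was at 0.768 ± 0.345 and 0.615 ± 0.250 CPM (-0.31, adjusted p = 0.639). Neither difference passed the test.

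**Figure D3:**
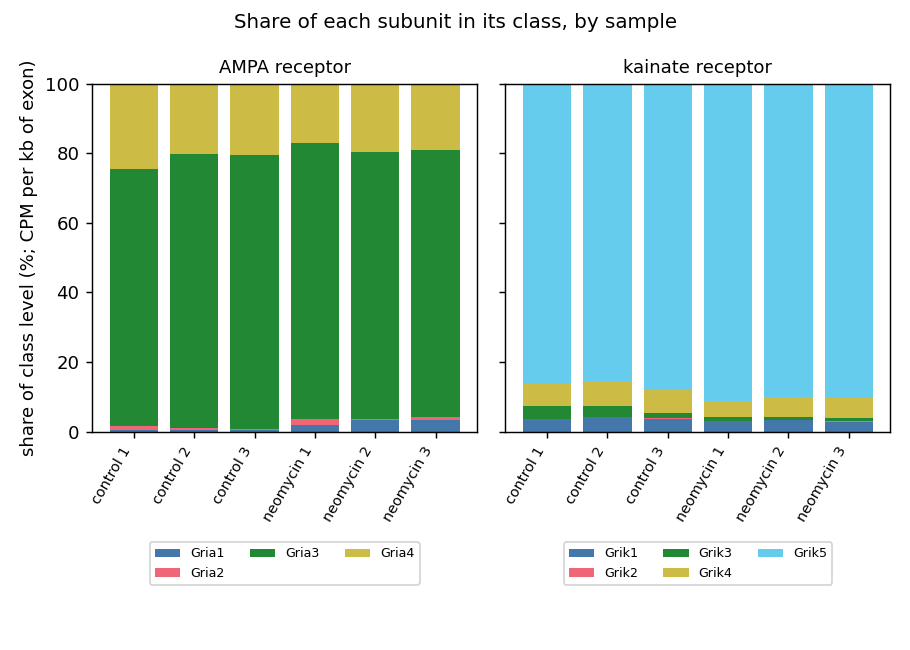
Share of each subunit (y axis, percent of the class level in CPM per kb of exon) in each of the 6 samples (x axis) for AMPA and kainate receptor genes. Gria3 and Grik5 led their classes in every sample, Gria3 with 73.9% to 79.5% and Grik5 with 85.3% to 91.3%.

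Gabra4 had the highest level per kilobase of the alpha subunit genes. Gabra4 had 5.93, 5.54 and 4.36 CPM in control and 3.97, 5.91 and 6.22 CPM in neomycin (0.02, SE 0.19, adjusted p = 0.938). Exons of Gabra4 and Gabrb1 overlap on opposite strands, so reads there could not be split between them without strand. Gabra3 was at 1.42 ± 0.168 and 1.06 ± 0.289 CPM (-0.43, adjusted p = 0.323). Gabra2 had 0 to 17 counts per library, Gabra5 had 1 to 11, and Gabra6 had none.

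The gamma subunits bring GABA-A receptors to synapses. Gabrg3 had 0.246, 0.192 and 0.213 CPM in control and 0.264, 0.102 and 0.428 CPM in neomycin (0.26, SE 0.58, adjusted p = 0.766), and Gabrg1 had 0 to 6 counts per library.

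Of the remaining GABA-A genes, Gabre, the epsilon subunit, measured 4.45, 4.64 and 3.83 CPM in control and 2.84, 2.63 and 3.15 CPM in neomycin. The groups did not overlap and the adjusted p was 0.0284 (SE 0.18), but the log2 fold change of -0.584 was just inside the limit of 0.585. Gabre was therefore called with limma-voom, with no filter, with the filter of at least 1 CPM in 3 samples, without control replicate 3 (adjusted p = 0.0229) and with neomycin replicate 3 left out (0.0436). The adjusted p was above 0.05 without control replicate 1 (0.0775), control replicate 2 (0.109), neomycin replicate 1 (0.0544) or neomycin replicate 2 (0.105). Gabrq, the theta subunit, had 0.238 ± 0.0712 and 0.487 ± 0.376 CPM (1.02, adjusted p = 0.228), and Gabrd, the delta subunit, had 0.665 ± 0.235 and 0.713 ± 0.229 CPM (0.10, adjusted p = 0.885). Gabrp, the pi subunit, had 1, 2 and 9 counts in control and 1, 0 and 0 in neomycin libraries (ratio 11.2, 95% exact interval 1.66 to 479). The rho subunits, which form their own channels in the retina, had few counts or none, with 0 to 8 counts per library for Gabrr2 and none for Gabrr1 and Gabrr3. 

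Glrb was the one glycine receptor gene with enough counts to test, and it was higher after neomycin. It codes for the beta subunit, which binds gephyrin and needs an alpha subunit to bind glycine well. Glrb had 50.3, 43.7 and 47.6 CPM in control and 59.9, 65.8 and 63.7 CPM in neomycin samples, without overlap (log2 fold change 0.42, SE 0.08, adjusted p = 0.00206). That is 1.34-fold and under the 1.5-fold limit. The alpha subunits were close to 0. Glra1 had 13, 6 and 14 counts in control and 0, 1 and 1 in neomycin libraries (ratio 15.4, 95% exact interval 3.94 to 133). Glra2 had at most 2 counts and Glra4 at most 6 in any library, and Glra3 had none. Exons of Glra1 overlap those of Gm12236, so its few reads may not all be its own.

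**Figure D4:**
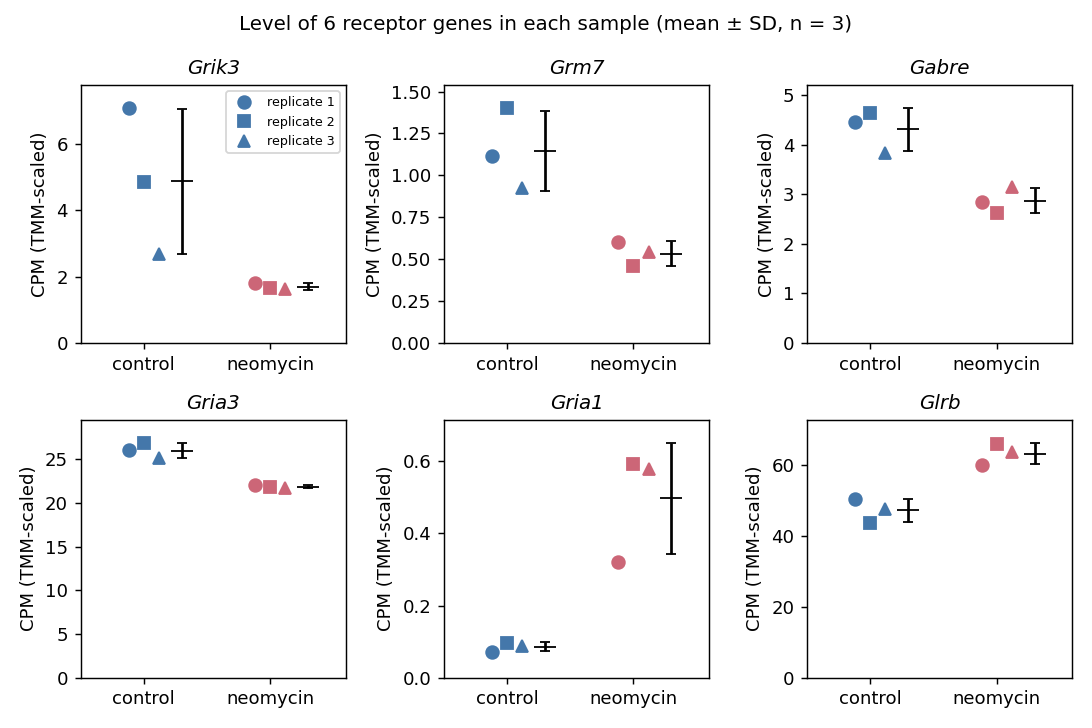
Level (y axis, TMM-scaled CPM, from 0) of 6 receptor genes with an adjusted p under 0.05 in each control and neomycin sample, with the mean and SD of 3 samples beside the points. In each panel the 3 neomycin samples lie wholly below the controls (Grik3, Grm7, Gabre, Gria3) or wholly above them (Gria1, Glrb).

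4 genes had no count in any library (Gabra6, Gabrr1, Gabrr3 and Glra3), and 6 of the 21 untested genes never passed 3 counts in a library. The highest count among the untested genes was 35. Grin1os had 7, 5 and 5 counts in control and 1, 0 and 2 in neomycin libraries (ratio 5.30, 95% exact interval 1.53 to 28.2), and it lies opposite Grin1.

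GABA-A genes lie in groups on the mouse chromosomes (mm10). On chromosome X (72255999 to 72842602), Gabre was at -0.58, Gabra3 at -0.43 and Gabrq at 1.02, and none of these was called. On chromosome 5 (70751047 to 72149037), Gabra4 was at 0.02 and Gabrb1 at -0.31. Of the called genes, Gria1 lies on chromosome 11 (57011387 to 57330244), Grik3 on chromosome 4 (125490700 to 125714173) and Grm7 on chromosome 6 (110645581 to 111567230), all on the plus strand.

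Promoter windows (250 bases before to 50 after the start, RefSeq, GRCm38.p6) were given for 36 of the 52 receptor genes, among them 2 of the 6 called genes, Grik3 and Grm7. Both fell after neomycin, and their windows are shown to compare base composition, with GC boxes in capitals (GGGCGG or its complement CCGCCC). The Grik3 window is chr4:125490446-125490745 and the Grm7 window, 1 of 2 given for that gene, is chr6:110645348-110645647, both on the plus strand.
Grik3: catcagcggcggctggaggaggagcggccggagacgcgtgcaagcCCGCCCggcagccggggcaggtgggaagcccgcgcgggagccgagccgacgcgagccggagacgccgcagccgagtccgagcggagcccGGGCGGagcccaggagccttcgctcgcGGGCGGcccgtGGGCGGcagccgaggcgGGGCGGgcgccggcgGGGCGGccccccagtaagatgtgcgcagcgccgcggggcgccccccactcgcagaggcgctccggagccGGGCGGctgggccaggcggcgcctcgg
Grm7: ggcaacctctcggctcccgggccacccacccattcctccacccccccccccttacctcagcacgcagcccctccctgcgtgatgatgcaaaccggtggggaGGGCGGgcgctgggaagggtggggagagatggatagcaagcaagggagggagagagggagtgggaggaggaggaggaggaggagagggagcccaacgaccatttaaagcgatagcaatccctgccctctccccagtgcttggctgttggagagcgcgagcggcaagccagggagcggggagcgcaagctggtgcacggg
The Grik3 window was 82.0% GC with 50 CpG sites and 7 GC boxes, and that of Grm7 was 66.7% GC with 15 CpG sites and 1 GC box. Over all 32851 windows, the median was 52.7% GC with 7 CpG sites, and 35.7% held a GC box on either strand. Neither window held CAGCTG, an E-box found in 16.3% of windows, or TATAAA on either strand, found in 13.6%. These are descriptions of the letters in each window.

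Of 70 genes of the same synapses, 63 were tested and 13 (20.6%) were called, 12 lower and 1 higher, against 8.84% of all genes. Among 17 scaffold genes of glutamatergic synapses tested, 4 fell, Homer2, Shank2 and Dlg2 among them. Homer2, which links metabotropic receptors to calcium stores, was at 28.0, 31.5 and 31.1 CPM in control and 10.4, 9.61 and 11.6 CPM in neomycin (log2 fold change -1.52, SE 0.10, adjusted p = 1.18e-06). Shank2 fell by 1.53 on the log2 scale and Dlg2 by 1.22. Of 12 auxiliary genes tested, Cnih3, an AMPA receptor cornichon, fell by 0.97 and Cbln1, a cerebellin that binds delta receptors, fell by 1.12. The groups overlapped for Cbln1, with control replicate 1 at 1.68 CPM and neomycin replicate 3 at 1.77 CPM. Of 11 genes for glutamate transport and handling, 9 had a log2 fold change below 0 and 3 were called. The uptake carriers Slc1a1 (-2.18, SE 0.53) and Slc1a7 (-2.33, SE 0.63) and the vesicular carrier Slc17a8 (-0.88) fell. Both uptake carriers were at low levels, Slc1a1 at 0.794 and 0.174 CPM and Slc1a7 at 0.683 and 0.133 CPM. The far more abundant Slc1a3 (198 and 213 CPM, adjusted p = 0.298) and Slc1a2 (28.1 and 31.2 CPM, adjusted p = 0.309) were not called. Slc17a8, which codes for VGLUT3, is also among the 14 HC markers.

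On the inhibitory side, 1 of 9 scaffold and accessory genes fell. Lhfpl4, which helps place GABA-A receptors at synapses, measured 9.68, 9.47 and 8.63 CPM in control and 1.94, 2.27 and 1.53 CPM in neomycin (log2 fold change -2.27, SE 0.17, adjusted p = 3.43e-06). Gphn, which codes for gephyrin, had 24.4, 24.4 and 25.4 CPM against 22.6, 22.5 and 22.3 CPM (-0.14, SE 0.08, adjusted p = 0.214). Of the GABA-B receptor genes, Gabbr2 fell (-1.64, SE 0.53, adjusted p = 0.0356), from 1.03 ± 0.299 to 0.328 ± 0.220 CPM. Gabbr1 was at 35.8 ± 4.10 and 35.5 ± 2.41 CPM (-0.01, SE 0.09, adjusted p = 0.925). Slc12a5, the chloride exporter KCC2, fell by 0.81 and was 1 of 4 chloride cotransporters. Of 8 genes for GABA and glycine synthesis, transport and breakdown, Slc6a13, the carrier GAT2, rose from 2.23, 1.90 and 2.53 CPM in control to 5.31, 5.51 and 5.23 CPM in neomycin (1.27, SE 0.18, adjusted p = 0.00041).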

How the data were processed

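RNA-seq of 6 samples was analysed. Counts per gene were deposited by the authors for each sample, as whole numbers without normalization. Per the study's methods and the submitters' processing notes, reads were processed with CASAVA 1.8 and Trimmomatic 0.23, aligned to mm10 with HISAT2 and counted with HTSeq. The strand setting, the handling of reads with several hits and the annotation date are not given in the sources used here. Genes that share sequence or overlap could thus be miscounted. All columns were mapped to samples.

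Genes were tested with edgeR 4.0.16 (R 4.3.3) using filterByExpr, TMM scaling and the quasi-likelihood test, with Benjamini-Hochberg adjustment over 15988 genes. Calls needed an adjusted p under 0.05 and a fold change over 1.5. Totals of 50471116 to 66068108 counts set the precision. Alternatives used DESeq2 1.42.0, limma 3.58.1, other scalings and filters, a replicate block, a length correction and leaving out each sample. Replicates were compared and none was a duplicate. Lengths and positions are from GENCODE vM21 (GRCm38). Of 24421 symbols, 23376 matched directly and 669 through an older symbol. Levels per kilobase divide by all exon bases. Ratios of untested genes use pooled counts with 95% exact intervals, for counting error only.

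The receptor genes, the synapse genes and the markers were chosen with earlier results of these data known. By rule, each receptor gene was to be named, with values per sample for called genes and for the highest gene per kilobase of each class, along with each called synapse gene, the GABA-B receptor genes and Gphn. Some of these genes are not reported here, though they are included in the counts.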

Additional observations from a re-analysis of the deposited data

How the results depend on the processing

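The scaling by RLE or upper quartile and the length correction gave the 6 called receptor genes again. Grik3 was called under every alternative, and Gria1 under every alternative except the filter of at least 1 CPM in 3 samples, where it was not tested. DESeq2 called 5 receptor genes lower and the fit without a filter called 7 lower, with Glra1 and Grin2c added by both. Adjusted p alone gave 5 lower. The filter of at least 1 CPM in 3 samples, which tests 21 receptor genes, called 1 higher, and adjusted p under 0.01 called 3 receptor genes, 1 of them higher. Leaving out 1 library at a time gave 4 to 7 receptor genes called, 2 to 4 lower and 1 to 3 higher, with 1 higher without control replicate 2 or neomycin replicate 2. The synapse genes called numbered 23 by adjusted p alone, 7 at adjusted p under 0.01, and 8 to 14 with 1 library left out, the 8 without control replicate 2 or neomycin replicate 2. The log2 fold change of Gria2, at 0.12, was -0.042 with limma-voom. With 1 library left out, the direction turned for genes that had not been called: Gabra4 (-0.093 to 0.20), Gabrb1 (-0.65 to 0.10), Gabrd (-0.15 to 0.34), Gabrg3 (-0.27 to 0.66), Gria2 (-0.47 to 0.89), Grin3a (-0.22 to 0.33) and Grm3 (-0.17 to 0.86). The cause of these shifts was not tested. After the group means were removed, the correlations of same-numbered control and neomycin samples were 0.165, 0.026 and 0.095. Those of differently numbered samples were -0.129 to 0.032. With 3 samples in each group, these values cannot decide whether same-numbered samples shared a litter or culture. With the replicate block, 5 receptor genes and 14 synapse genes were called, and with the block and the length correction 5 were called, with Grm7 lost (adjusted p = 0.0584) and Grm4 gained (log2 fold change 0.78, adjusted p = 0.041). Depth limits what could be tested: no untested receptor gene had more than 35 counts in a library. That count is not a cutoff, since Gria1 was tested with at most 35 counts in a library.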
